A study of Mus musculus with 2 samples.

Results

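The expression of 9 genes of tumour necrosis factor (TNF) signalling was followed across the cell types of the injured mouse kidney: the ligands Tnf and Ltb, the receptors Tnfrsf1a, Tnfrsf1b and Tnfrsf12a, the NF-kappaB subunits Nfkb1 and Relb, and the feedback genes Nfkbia and Tnfaip3. They are defined by name, in a set drawn up with earlier results of these data known, and all 9 were found among the 32285 genes of both libraries. Kidney cells were taken on day 14 after clamping of 1 renal artery and reperfusion, and mice of both groups received 4 tamoxifen injections after the injury. The control library came from Cre- mice. The haplodeficient library came from Cdh5-CreERT2; Phd3f/+ mice, in which the promoter of Cdh5, a cadherin gene of endothelial cells, drives a tamoxifen-inducible Cre, and 1 floxed allele of Phd3 (Egln3) can be recombined. Phd3 encodes an oxygen-dependent prolyl hydroxylase, and the study asked how its endothelial dose bears on inflammation and repair after ischaemia. Whether the Cre- mice carried the floxed allele, how many mice went into a library, and the age and sex of the mice were not given in the sources used here.

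TNF is made as a membrane protein by macrophages, T cells and other leukocytes and is released by proteolysis. It binds TNFR1 (Tnfrsf1a), which most cells carry, and TNFR2 (Tnfrsf1b), which is found mainly on leukocytes and endothelium. Receptor signalling through TRAF and RIP proteins activates the IkappaB kinases, which mark IkappaB-alpha (Nfkbia) for destruction and so free NF-kappaB dimers to enter the nucleus. NF-kappaB then induces its own brakes, among them Nfkbia and the ubiquitin-editing enzyme A20 (Tnfaip3), so that the level of their transcripts is widely read as a trace of pathway activity. Lymphotoxin-beta (Ltb) and the receptor of TWEAK (Tnfrsf12a, also called Fn14) act largely through a slower branch that uses Relb. Fn14 is known to appear on injured kidney tubules.

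The control library held 134190236 unique molecular identifiers (UMIs), 106926054 of them in 8737 retained cells, whose median depth was 8762 UMIs. The haplodeficient library held 114668145 UMIs, 93610831 of them in 9222 cells of median depth 5471.5. Median mitochondrial shares were 10.2% and 2.69%, and 28 kept barcodes occurred in both libraries. Cells were grouped without the 9 genes and named from marker genes, hence the names ending in "-like". 15 classes with at least 50 cells per library were compared, and clusters that met no class are called by their leading gene. Leukocytes were more numerous in the haplodeficient library: T-cell-like cells made up 2.06% of control and 11.3% of haplodeficient cells. The podocyte-like class also had Tnc, Tagln, Wnt16 and Foxd1 among its leading genes and may hold other cells. Egln3, the targeted gene, was at 24.2 and 20.99 CPM (UMIs of a gene per 1000000 UMIs of its class) in endothelial-like cells, a ratio of 0.867 (0.626 to 1.21), so it gave no check of the genotype.

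With 1 library per group no difference here has a replicate check and no test between groups was possible. Intervals in parentheses are 95% intervals of counting error in these libraries. They are exact Poisson for a level and exact conditional binomial for a ratio, but approximate (delta-method Poisson) for a ratio at a fixed class makeup. Ratios are haplodeficient over control. A difference was called when it was at least 1.5-fold with an interval that excluded 1, for a gene with at least 30 UMIs and a mean of at least 10 CPM. Of the 135 pairs of a member and a class, 104 passed these minimums. The call was higher in 21 pairs (20.2%) and lower in 5 (4.81%), where over all genes 6.4% of such pairs were called higher and 5.96% lower. The higher calls were 7 of Nfkbia, 5 each of Tnf and Tnfrsf12a, 2 of Ltb and 1 each of Nfkb1 and Relb, and the lower ones were 3 of Tnfaip3 and 2 of Nfkb1. Tnfrsf1a and Tnfrsf1b had none. Under all of up to 12 alternatives of cell selection, clustering, free RNA and scaling, 6 of the 21 higher calls and 0 of the 5 lower ones were kept, and 15 and 2 kept their interval on the same side of 1. The 6 were Tnf in T-cell-like, Ltb in descending thin limb-like, Nfkbia in distal convoluted tubule-like and Tnfrsf12a in thick ascending limb-like, proximal tubule-like and distal convoluted tubule-like cells. Among the alternatives was weighting the clusters of a class alike in both libraries. In a class of a single cluster, such as descending thin limb-like cells, it returned the main ratio and could not end a call.

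**Figure D1:**
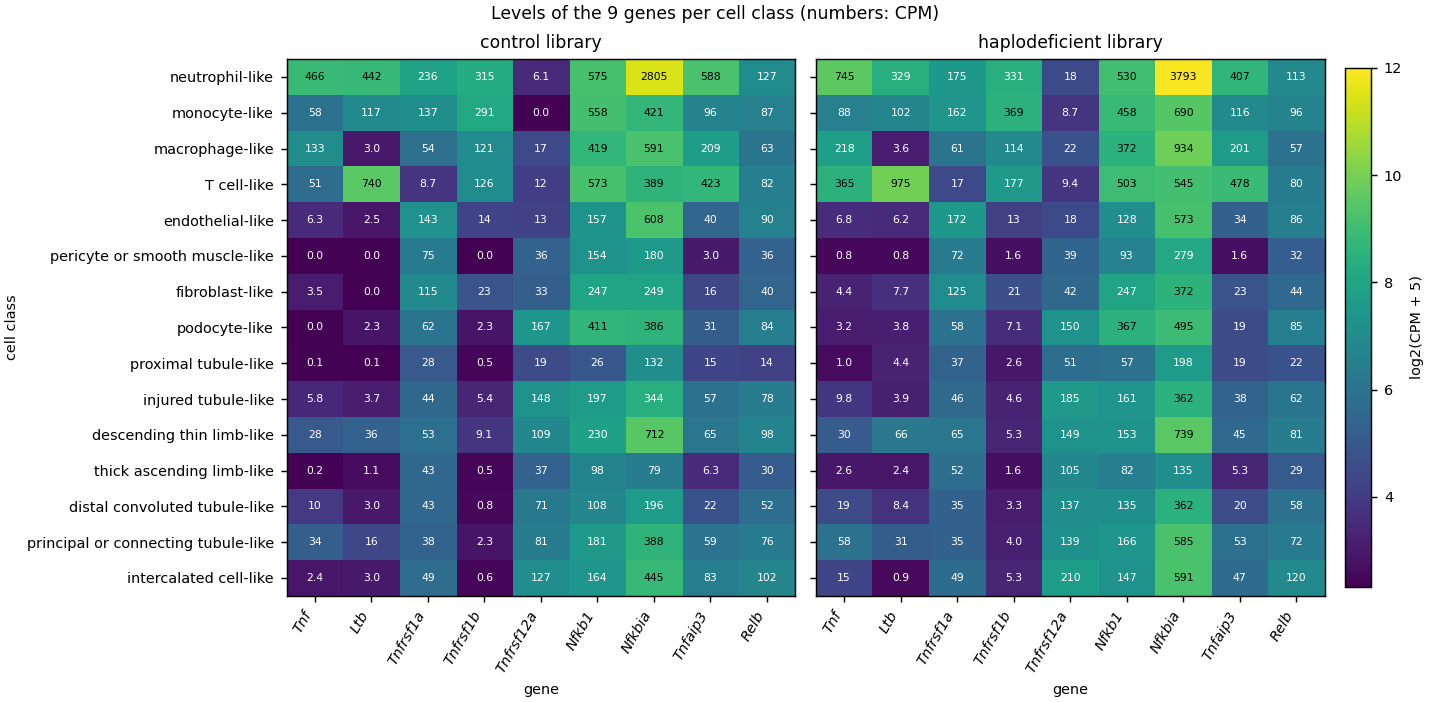
Level of the 9 genes in CPM (printed in each cell; colour on a log2 scale after adding 5 CPM) in the 15 classes of the control and the haplodeficient library. Tnf, Tnfrsf1b and Ltb are concentrated in leukocyte classes, Tnfrsf12a has its highest levels in tubule and podocyte-like classes, and Nfkbia is found in every class.

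Over all cells together every one of the 9 genes was higher in the haplodeficient library, a sum that also reflects how many cells of each class were caught. Tnf was at 16.6 and 65.4 CPM, giving a ratio of 3.95, and Ltb at 11.1 and 57.7 CPM, with a ratio of 5.18. When each of the 18 named classes was given the same share of UMIs in both libraries, the ratio was 1.88 (1.76 to 2.01) for Tnf and 1.38 (1.27 to 1.49) for Ltb. These classes include the small NK-cell, conventional dendritic cell and urothelium ones. The step also leaves out the unnamed clusters, which the ratios over all cells include, so the change is not that of makeup alone. The same step took Tnfrsf1b from 3.05 to 1.10 (1.02 to 1.19) and Tnfaip3 from 1.63 to 0.915 (0.872 to 0.960). Nfkb1 went from 1.42 to 0.901 (0.876 to 0.928), which put Nfkb1 and Tnfaip3 below 1, and Tnfrsf1a went from 1.42 to 1.12 (1.06 to 1.18). Relb was left at 0.983 (0.935 to 1.03). Tnfrsf12a, with its highest levels in tubule and podocyte-like classes, moved least, from 1.70 to 1.63 (1.56 to 1.70). Nfkbia was at 289 and 562 CPM, with ratios of 1.94 before and 1.33 (1.31 to 1.36) after. The 6 named leukocyte classes (macrophage, monocyte, neutrophil, T cell, NK cell and conventional dendritic cell) held 6.13% of all UMIs of control cells and 18.6% of haplodeficient ones. They held 45.1% and 73.3% of the Tnf UMIs, 65.1% and 83.6% of those of Tnfrsf1b, and 1.54% and 3.19% of those of Tnfrsf12a.

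**Figure D2:**
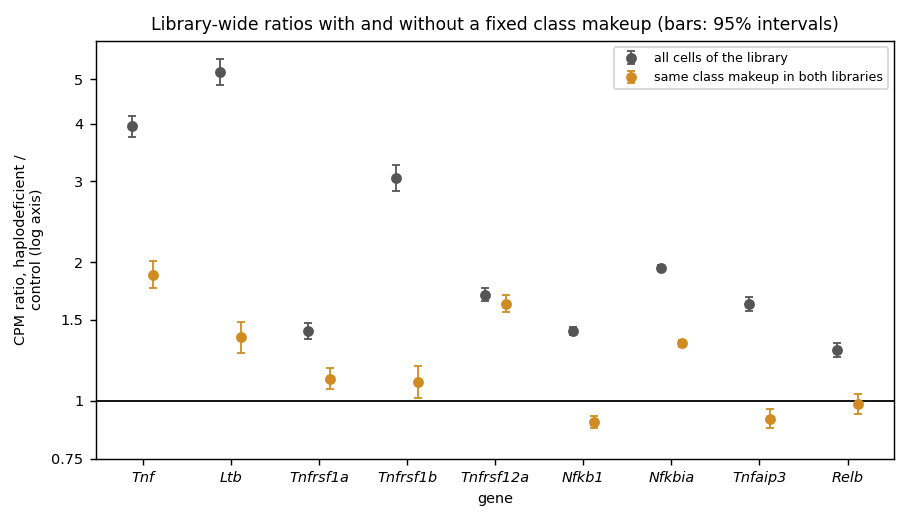
Ratio of each gene, haplodeficient over control, on a log axis, over all cells as they are and with every named class held at the same share in both libraries, without unnamed clusters. Bars are 95% intervals of counting error. The ratios of Tnf, Ltb and Tnfrsf1b shrink most at a fixed class makeup, and those of Nfkb1 and Tnfaip3 pass below 1.

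Tnf (ENSMUSG00000024401, chr17:35199381-35202007, minus strand in GRCm38, GENCODE M21) had its highest level in neutrophil-like cells, at 466 CPM (368 to 583) in control and 745 CPM (697 to 796) in haplodeficient cells. In the control library macrophage-like cells came next, at 133 CPM (123 to 143). Below them monocyte-like, T-cell-like and principal or connecting tubule-like cells followed, at 58.3 CPM, 50.6 CPM and 33.5 CPM, neighbours that did not differ beyond counting error. In the haplodeficient library T-cell-like cells stood second, at 365 CPM (344 to 386), above macrophage-like cells at 218 CPM (209 to 227). Monocyte-like cells followed at 87.9 CPM, apart from principal or connecting tubule-like cells at 57.8 CPM. Descending thin limb-like cells were at 27.5 CPM and 29.7 CPM, distal convoluted tubule-like cells at 10.2 CPM and 18.6 CPM, and the 8 other classes with at least 50 cells per library were lower, at up to 6.26 CPM in control and 15.1 CPM in haplodeficient cells. Many of these low counts lie near the level that free RNA gives. Macrophage-like cells, the largest leukocyte class, held 38.1% and 36.8% of the Tnf UMIs, while the part of T-cell-like cells was 1.64% in control and 19.0% in haplodeficient cells.

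Among the pairs that passed the minimums, the largest ratio was that of Tnf in T-cell-like cells. Its level was 50.6 CPM on 29 UMIs in control and 365 CPM on 1165 UMIs in haplodeficient cells, a ratio of 7.20 (4.99 to 10.8). Of all genes tested in this class, 3.64% were called higher and 9.26% lower. A Tnf UMI was seen in 21 of 180 control cells (11.7%) and 277 of 1039 haplodeficient cells (26.7%). After thinning each cell to 1000 UMIs the shares were 4.55% (1.98 to 8.76) of 176 and 17.1% (14.8 to 19.5) of 1020 cells. In proximal tubule-like cells, a class that should lack Tnf, thinning left a Tnf UMI in 0 of 2812 cells (up to 0.107%) of the control and 0 of 299 cells (up to 1.00%) of the haplodeficient library; median depths were 2709.5 and 2581 UMIs in T-cell-like and 10933 and 8133.5 in proximal tubule-like cells. T-cell-like cells with a UMI held 1.38 Tnf UMIs on average in control and 4.21 in haplodeficient cells, and the most in 1 cell was 3 and 38. With UMIs grouped in cells in this way, the counting interval of the ratio is too narrow. Both more cells with Tnf and more Tnf per such cell were counted in the haplodeficient library. Free RNA, profiled in near-empty barcodes, could account for 0.822% and 0.419% of these UMIs.

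The difference was present in each of the 3 clusters of T-cell-like cells. In the largest, led by Ms4a4b, Tnf was at 59.3 and 435 CPM, giving a ratio of 7.33 (4.94 to 11.4). In the cluster led by Il17a, Trdc and Il23r, genes of interleukin-17-producing gamma-delta T cells, it was at 22.9 and 148 CPM, with a ratio of 6.46 (1.71 to 54.7), on 2 and 56 UMIs. In the dividing cluster it was at 31.5 and 151 CPM, giving a ratio of 4.79 (1.27 to 40.4). The direction was the same in all 3, on very few control UMIs in the smaller ones. T-cell-like cells with Cd4 and without Cd8a UMIs had 71.7 and 440.1 CPM, with a ratio of 6.14 (3.19 to 13.6), over 33 and 205 cells. Those with Cd8a and without Cd4 had 62.6 and 245 CPM, giving a ratio of 3.92 (2.16 to 7.94). Whether the 2 ratios differ was not tested. Other cells left traces in this class: the 10 macrophage markers summed to 613 CPM in control and 175 CPM in haplodeficient T-cell-like cells, with Fcgr1 at 0 in the latter. The 8 neutrophil markers summed to 17.5 and 98.3 CPM, with S100a9, Retnlg, Csf3r and Cxcr2 at 0 in the control; their part in the result was not tested. Over the 12 alternatives of processing the ratio ran from 6.84 to 7.91.

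In macrophage-like cells Tnf was at 133 CPM (123 to 143) in control and 218 CPM (209 to 227) in haplodeficient cells, a ratio of 1.65 (1.51 to 1.80), in a class with 2.56% of all genes called higher and 5.85% lower. After thinning, 11.2% (9.03 to 13.6) of 770 control and 15.6% (13.7 to 17.7) of 1262 haplodeficient macrophage-like cells had a Tnf UMI. The cluster led by Ccl12, Ccl8 and Mrc1 was at 149 and 263 CPM, giving a ratio of 1.76 (1.57 to 1.99). The cluster led by Gpnmb, Fabp5 and Trem2, genes of lipid-handling macrophages, was at 96.8 and 202 CPM, with a ratio of 2.08 (1.78 to 2.45). The dividing cluster was at 188 and 185 CPM, giving a ratio of 0.986 (0.766 to 1.28), so the higher level was seen in the larger clusters and not in this one; the difference between clusters was not tested. In neutrophil-like cells, where 5.47% and 7.93% of all genes were called, the ratio was 1.60 (1.27 to 2.04), and the share with a Tnf UMI after thinning was 26.0% (17.6 to 36.0) of 96 and 32.3% (28.5 to 36.3) of 572 cells, intervals that overlap. There the 10 macrophage markers summed to 479 and 1048 CPM, of which Mrc1 was at 0 in both libraries, and their part in the result was not tested. Naming each cell on its own gave 1.495 in macrophage-like and 1.47 in neutrophil-like cells, both under the 1.5-fold line, and separate clustering of the libraries gave 1.38 in neutrophil-like cells. Monocyte-like cells were at 58.3 CPM and 87.9 CPM, with a ratio of 1.51 (0.873 to 2.82), on 14 control UMIs.

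Outside leukocytes, Tnf was counted in distal tubule classes. Principal or connecting tubule-like cells had 33.5 CPM (29.2 to 38.3) and 57.8 CPM (52.5 to 63.6), giving a ratio of 1.73 (1.46 to 2.04), beside 7.29% of all genes called higher and 7.03% lower. Leukocyte markers were counted in it too: the 8 neutrophil markers summed to 9.84 CPM (5 of 8 seen) and 30.0 CPM (8 of 8), with S100a9, Retnlg and Cxcr2 at 0 in the control, and the 10 T cell markers summed to 6.92 CPM (5 of 10 seen) and 18.8 CPM (10 of 10), with Cd3e, Cd3d, Trbc2, Cd8b1 and Themis at 0 in the control. In addition the 10 monocyte markers summed to 299 CPM (5 of 10 seen) and 579 CPM (8 of 10), while the 10 macrophage markers summed to 282 CPM (10 of 10 seen) and 173 CPM (10 of 10); their part in the results of this class was not tested. The 2 clusters of this class were unevenly caught. The cluster led by Spink8 held 57.5% of the control and 97.8% of the haplodeficient cells, and in it Tnf was at 54.6 and 59.0 CPM, with a ratio of 1.08 (0.914 to 1.28). The cluster led by the water channel genes Aqp2 and Aqp3 had 214 control and 13 haplodeficient cells. Within the Spink8-led cluster the interval thus included 1. With both clusters weighted alike the ratio was 1.09. Tnf levels in distal convoluted tubule-like cells were 10.2 CPM and 18.6 CPM, giving a ratio of 1.83 (1.35 to 2.49), and free RNA could account for 20.5% of the haplodeficient UMIs. There the 8 neutrophil markers summed to 6.65 CPM (6 of 8 seen) and 13.9 CPM (7 of 8). The 10 T cell markers summed to 4.18 CPM (7 of 10 seen) and 9.66 CPM (7 of 10). For the 10 monocyte markers the sums were 44.2 CPM (6 of 10 seen) and 93.0 CPM (7 of 10). The 10 macrophage markers had the largest sum and did not rise, at 195 CPM and 185 CPM (10 of 10 seen in both). The part of these leukocyte markers was not tested. Over all genes 7.12% were called higher in this class and 4.3% lower. The call ended with the clusters weighted alike, and the main one, led by Il1f6, had 1.34 (0.991 to 1.83). In descending thin limb-like cells the ratio was 1.08 (0.880 to 1.33). In thick ascending limb-like and proximal tubule-like cells the level was at most 2.63 CPM, which free RNA could account for in full.

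**Figure D3:**
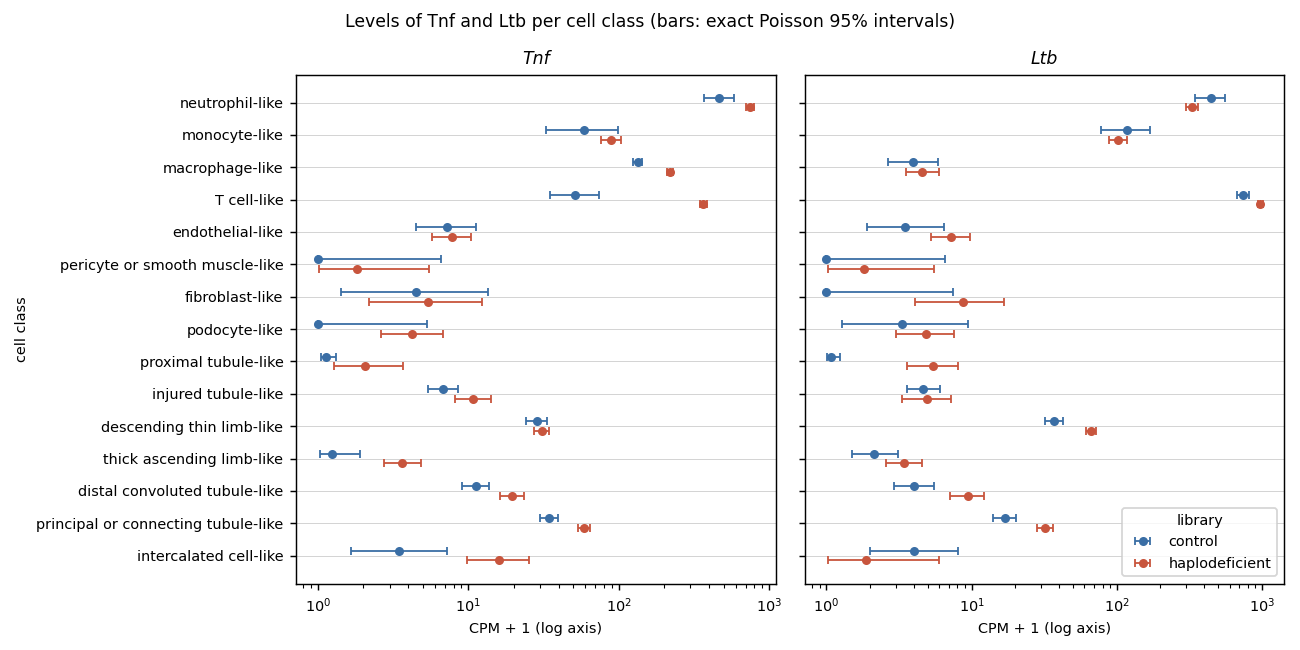
Tnf and Ltb in CPM (log axis, after adding 1) by class in the control and the haplodeficient library; bars are exact Poisson 95% intervals. T-cell-like cells lie far apart between the libraries for Tnf (50.6 and 365 CPM) and closer together for Ltb.

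Ltb (ENSMUSG00000024399, chr17:35194439-35196320, plus strand) encodes the membrane partner of lymphotoxin-alpha and lies beside Tnf in the class III region of the major histocompatibility complex. The facing 3′ ends of both genes are 3060 bases apart. Ltb was highest in T-cell-like cells, at 740.5 CPM (672 to 814) in control and 975 CPM (941 to 1010.1) in haplodeficient cells, a ratio of 1.32 (1.19 to 1.46) that missed the call. After thinning, 50.6% (42.9 to 58.2) of 176 and 52.5% (49.3 to 55.6) of 1020 T-cell-like cells had an Ltb UMI. These intervals overlap, whereas those of Tnf in the same cells did not. The Il17a-led cluster had 1029 and 1546 CPM, and the interval of its ratio ran from 1.20 to 1.90. Among classes of at least 50 cells per library neutrophil-like cells came next, at 442 CPM and 329 CPM, where the ratio was 0.744 (0.578 to 0.969). Macrophage-like cells, rich in Tnf, had 2.95 CPM and 3.59 CPM. T-cell-like cells held 35.6% and 57.7% of the Ltb UMIs.

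Both calls of Ltb were in tubule classes. Descending thin limb-like cells had 36.0 CPM (31.2 to 41.5) and 65.9 CPM (60.7 to 71.5), giving a ratio of 1.83 (1.55 to 2.16), with 2.79% of all genes called higher and 6.63% lower. Few cells carried it: the 10 cells with the most Ltb held 51.3% of the UMIs in control and 46.3% in haplodeficient cells, and 1 cell had up to 20 and 65. Counting intervals are too narrow for a gene spread in this way. T cell, neutrophil and monocyte markers moved with it. In this class the 10 T cell markers summed to 4.07 CPM (3 of 10 seen) and 18.7 CPM (10 of 10). Cd3e, Cd3g, Trac, Trbc2, Cd8b1, Lef1 and Themis were at 0 in the control. In the same cells the 8 neutrophil markers summed to 11.5 CPM (7 of 8 seen) and 68.1 CPM (8 of 8), with Csf3r at 0 in the control. The 10 monocyte markers summed to 256 CPM (6 of 10 seen) and 534 CPM (9 of 10). The 10 macrophage markers changed less, from 259 CPM to 302 CPM (10 of 10 seen in both). The part of these leukocyte markers in the result was not tested. Principal or connecting tubule-like cells had 16.0 CPM and 31.0 CPM, with a ratio of 1.94 (1.53 to 2.47), and the Spink8-led cluster 1.28 (1.00 to 1.64); the T cell and neutrophil markers given above for this class moved with it. With clusters weighted alike the ratio of the class was 1.23, with an interval that included 1.

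The receptors Tnfrsf1a and Tnfrsf1b had no call in any class. Tnfrsf1a (ENSMUSG00000030341, chr6:125349362-125362484, plus strand), the receptor that can signal both NF-kappaB activation and cell death, passed the minimums in all 15 classes with ratios from 0.741 to 1.97 and a median of 1.09. It was highest in neutrophil-like cells, at 236 CPM (168 to 323) and 175 CPM (152 to 200.5), giving a ratio of 0.741 (0.524 to 1.07). Endothelial-like cells were at 143 CPM (128 to 159) and 172 CPM (161 to 183), with a ratio of 1.20 (1.06 to 1.36), and the thinned shares of cells with a UMI were 11.3% (8.13 to 15.2) of 336 and 16.1% (13.5 to 18.9) of 759. T-cell-like cells had little of it, at 8.73 CPM and 17.2 CPM, and proximal tubule-like cells 27.8 CPM and 36.8 CPM. The highest ratio, 1.97 (0.796 to 6.31), was that of T-cell-like cells, on 5 and 55 UMIs, and its interval included 1.

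Tnfrsf1b (ENSMUSG00000028599, chr4:145213463-145246870, minus strand), the leukocyte receptor, passed the minimums in 6 classes. Its level was 315 CPM and 331 CPM in neutrophil-like, 291 CPM and 369 CPM in monocyte-like and 121 CPM and 114 CPM in macrophage-like cells. Ratios there were 1.05 (0.787 to 1.43), 1.27 (0.988 to 1.64) and 0.936 (0.849 to 1.03), and each interval included 1. T-cell-like cells were at 126 CPM (98.4 to 158) and 177 CPM (163 to 192), giving a ratio of 1.41 (1.10 to 1.83). After thinning, 6.82% (3.57 to 11.6) of 176 and 17.2% (14.9 to 19.6) of 1020 T-cell-like cells had a UMI. Endothelial-like cells had 14.2 CPM and 12.9 CPM.

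Tnfrsf12a (ENSMUSG00000023905, chr17:23675445-23677468, minus strand), the TWEAK receptor, had its highest levels in tubule and podocyte-like classes. Control levels in pericyte or smooth-muscle-like and fibroblast-like cells were 36.2 CPM and 33.0 CPM, above that of proximal tubule-like cells. Tnfrsf12a was called higher in 5 classes, all of them tubular. Its ratio was above 1 in 11 of the 13 classes where it passed the minimums. In thick ascending limb-like cells it was at 36.7 CPM (32.7 to 41.2) and 105 CPM (99.0 to 112), giving a ratio of 2.86 (2.52 to 3.27). The thinned share of cells with a UMI was 3.13% (1.93 to 4.80) of 638 and 9.70% (7.47 to 12.3) of 608. In macrophage-like cells, a class with little of the gene, it was 1.17% (0.536 to 2.21) of 770 and 2.30% (1.54 to 3.28) of 1262, with median depths of 9808 and 7976 UMIs in thick ascending limb-like and 4870 and 5469 in macrophage-like cells. Both clusters of the class showed it, with 2.84 (2.49 to 3.25) in that led by Egf and 3.49 (1.80 to 7.43) in that led by Camk1d. Proximal tubule-like cells were at 19.0 CPM (17.7 to 20.5) and 51.1 CPM (44.2 to 58.8), with a ratio of 2.68 (2.28 to 3.15). Levels in distal convoluted tubule-like cells were 70.7 CPM and 137 CPM, giving a ratio of 1.94 (1.73 to 2.17). The 3 calls were kept under all alternatives, with ratios of at least 1.90, 1.87 and 1.54.

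The quality of these 3 classes differed between the libraries. Median mitochondrial shares were 23.2% and 8.25% in proximal tubule-like cells, 17.4% and 5.16% in thick ascending limb-like and 13.4% and 6.27% in distal convoluted tubule-like cells, control first. Immediate early and heat-shock genes, which cell dissociation induces, had a summed ratio of 1.63, 1.57 and 1.18 in them. In addition 2965 control but 306 haplodeficient cells were proximal tubule-like, and 2 of its 5 clusters, led by Kap and Slc7a13, had 6 haplodeficient cells each. Their part in the result was not tested. Over all genes, 15.1% were called higher and 3.12% lower in proximal tubule-like cells, and 15.5% and 4.53% in thick ascending limb-like cells, so higher calls were common in both classes.

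In the remaining tubule classes the ratios of Tnfrsf12a were smaller. Principal or connecting tubule-like cells were at 80.6 CPM and 139 CPM, giving a ratio of 1.73 (1.56 to 1.93), which was 1.24 (1.11 to 1.39) within the Spink8-led cluster. Intercalated-cell-like cells had 127 CPM and 210.0 CPM, with a ratio of 1.65 (1.36 to 2.00) that dropped to 1.48 with at most 25% mitochondrial UMIs per cell. Of all genes, 8.99% were called higher and 7.07% lower in intercalated-cell-like cells. Injured tubule-like cells, defined by Havcr1 and other injury genes, had 148 CPM and 185 CPM, giving a ratio of 1.25 (1.15 to 1.36), and descending thin limb-like cells 109 CPM and 149 CPM, with a ratio of 1.36 (1.24 to 1.51). Podocyte-like cells had one of the highest levels, 167 CPM and 149.9 CPM, with a ratio of 0.900 (0.746 to 1.09). Control levels ran from 19.0 CPM to 167 CPM among these classes, and the 2 classes with the lowest control levels, proximal tubule-like and thick ascending limb-like, had the 2 largest ratios; level and ratio share the control counts.

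**Figure D4:**
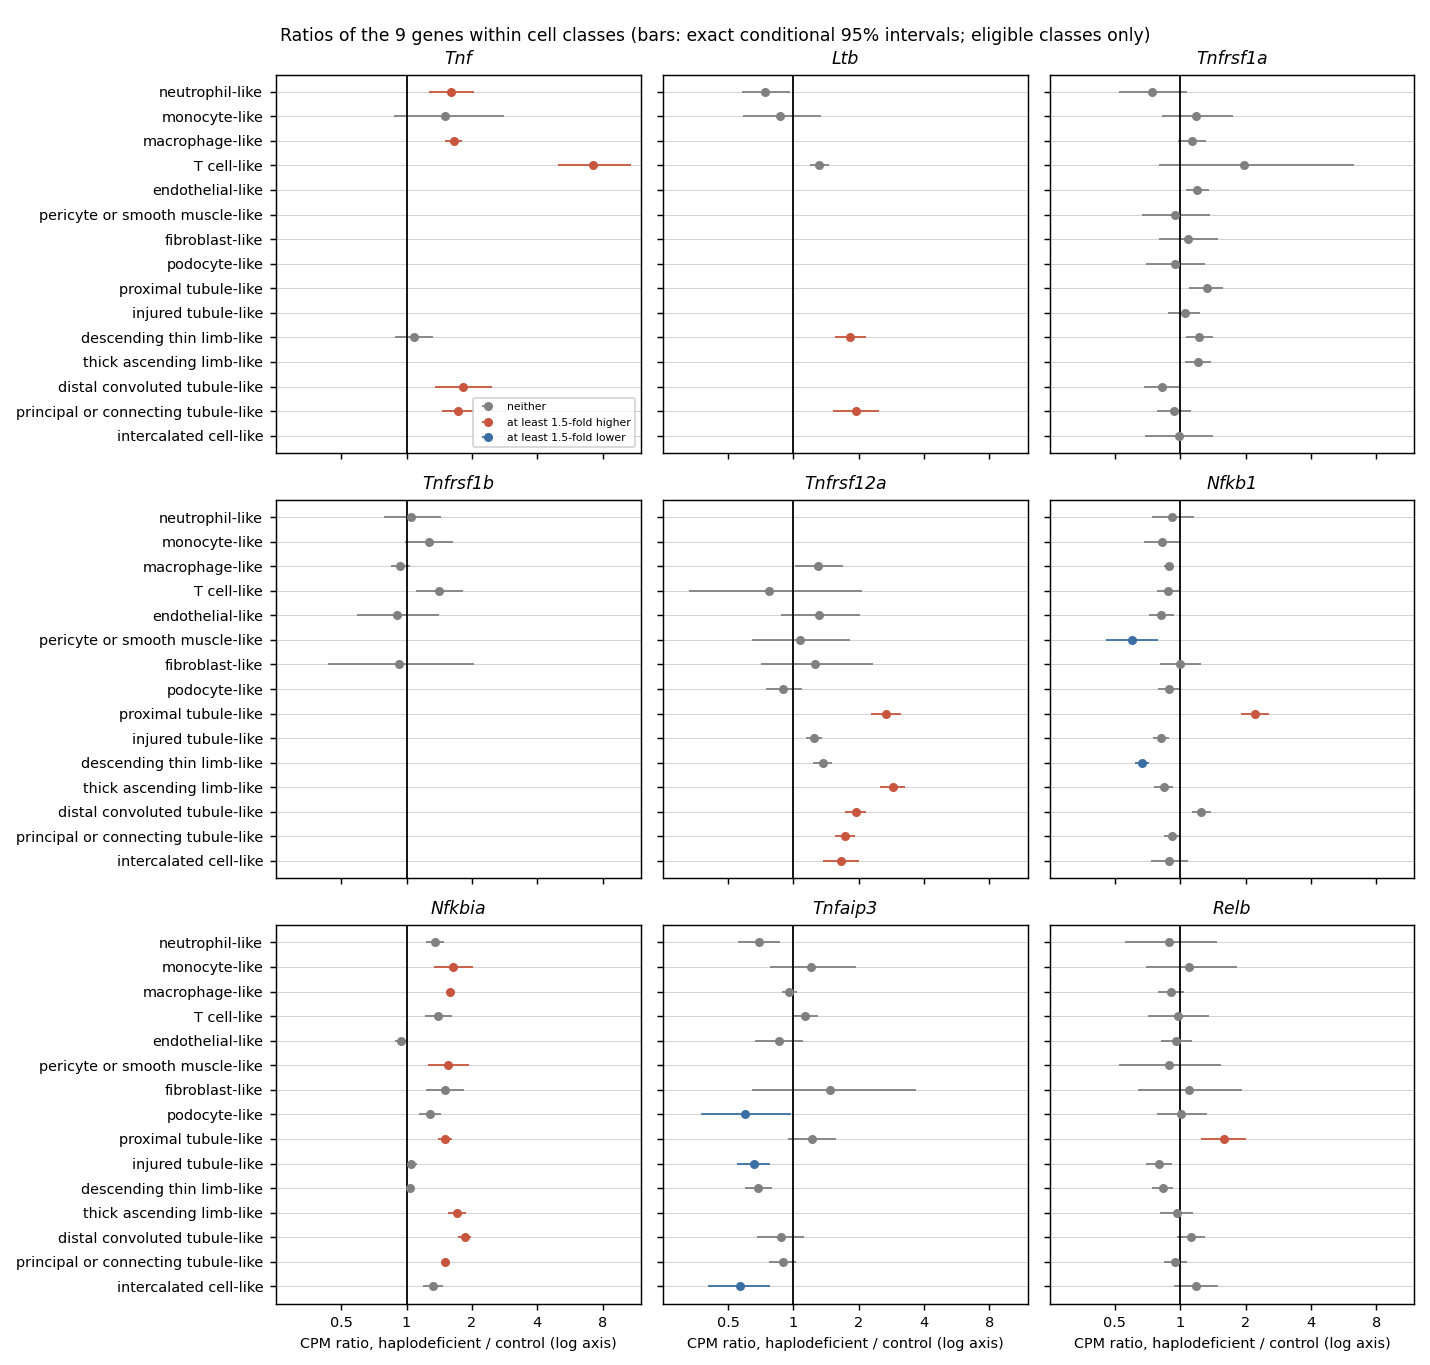
Ratio of each member, haplodeficient over control, on a log axis in every class where it passed the minimums, 1 panel per gene; bars are exact conditional 95% intervals, and colours show pairs called higher, lower or neither. Tnfrsf1a and Tnfrsf1b have no called pair, Nfkbia lies above 1 in 14 of 15 classes, and Tnf in T-cell-like cells (7.20) is the farthest point.

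Of the 2 NF-kappaB subunits, each had 1 higher call, in proximal tubule-like cells, and Nfkb1 also had 2 lower ones. Nfkb1 (ENSMUSG00000028163, chr3:135584655-135691547, minus strand) encodes p105, the precursor of p50. It was highest in leukocytes, with 575 CPM and 530.0 CPM in neutrophil-like, 573 CPM and 503 CPM in T-cell-like and 419 CPM and 372 CPM in macrophage-like cells. Its ratio was below 1 in 12 of 15 classes, with a median of 0.888. In macrophage-like cells the ratio was 0.888 (0.842 to 0.937). The 2 lower calls were in descending thin limb-like cells, at 229.7 CPM (217 to 243) and 153 CPM (145 to 161), giving a ratio of 0.667 (0.617 to 0.721), and in pericyte or smooth-muscle-like cells, at 154 CPM (125 to 187) and 92.7 CPM (76.5 to 111), with a ratio of 0.602 (0.457 to 0.794). Of all genes 4.97% were called higher and 4.41% lower in the latter class. Its Nfkb1 ratio turned to 1.01 without doublet removal and to 1.95 with separate clustering of the libraries. The ratio in descending thin limb-like cells rose to at most 0.768, short of a call. Proximal tubule-like cells went the other way, at 25.8 CPM and 57.1 CPM, giving a ratio of 2.22 (1.91 to 2.57) that was 1.49 with the mitochondrial limit at 25% and 1.39 without doublet removal. In proximal tubule-like cells the 10 macrophage markers summed to 545 CPM (10 of 10 seen) and 938 CPM (10 of 10), and the 10 T cell markers summed to 3.17 CPM (8 of 10 seen) and 23.5 CPM (8 of 10), with Cd8a and Cd8b1 at 0 in both; their part in the calls of this class was not tested.

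Relb (ENSMUSG00000002983, chr7:19606217-19629438, minus strand), the subunit of the slower branch and itself an NF-kappaB target, had control levels from 14.0 CPM in proximal tubule-like and 29.8 CPM in thick ascending limb-like to 127 CPM in neutrophil-like cells. Control and haplodeficient levels were 127 CPM and 113 CPM in neutrophil-like, 102 CPM and 120.1 CPM in intercalated-cell-like and 90.1 CPM and 86.4 CPM in endothelial-like cells. The median ratio over 15 classes was 0.963. The single call was in proximal tubule-like cells, at 14.0 CPM and 22.2 CPM, giving a ratio of 1.59 (1.25 to 2.00), and 7 of 12 alternatives ended it. The lowest ratio was 1.16, in the 5000 deepest barcodes of each library.

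The feedback genes Nfkbia and Tnfaip3 are both NF-kappaB targets, and their promoters were searched for the kappaB consensus motif on both strands. RefSeq windows (GRCm38.p6) of 250 bases before to 50 bases after a start were found for 7 of the 9 genes, in 8 windows; Nfkb1 and Relb were not among them. Nfkbia, Tnfaip3 and Ltb had a match, as did 4.51% of all 32851 windows. The stretches are shown to set the letters beside the expression values, 5′ to 3′ on the gene's strand and ending just before the start of the transcript except for Ltb, with matches in capitals. They cover chr12:55492648-55492747 (minus strand) for Nfkbia, chr10:19015411-19015540 (minus strand) for Tnfaip3, chr17:35194357-35194438 (plus strand) for Ltb and chr17:35202008-35202107 (minus strand) for Tnf.
Nfkbia: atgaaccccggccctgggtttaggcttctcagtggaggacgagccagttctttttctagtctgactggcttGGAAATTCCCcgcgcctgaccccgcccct
Tnfaip3: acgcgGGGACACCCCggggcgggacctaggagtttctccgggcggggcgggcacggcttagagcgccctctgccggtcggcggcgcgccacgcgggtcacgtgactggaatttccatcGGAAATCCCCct
Ltb: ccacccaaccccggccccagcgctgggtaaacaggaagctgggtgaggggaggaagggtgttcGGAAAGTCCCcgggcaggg
Tnf: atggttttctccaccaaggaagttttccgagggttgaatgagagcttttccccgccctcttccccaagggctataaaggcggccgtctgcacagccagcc
The Nfkbia stretch holds 1 match, 29 to 20 bases before the start. Tnfaip3 holds 2, at 125 to 116 and 12 to 3 bases before the start, in the first intron of a transcript that begins further upstream. The Ltb stretch ends 69 bases before its RefSeq start and has 1 match, at 87 to 78 bases. Tnf has none in its window, which says only that these letters do not occur there. A match is a description of the sequence and not a measured binding site.

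Nfkbia (ENSMUSG00000021025, chr12:55489410-55492647, minus strand) had a ratio above 1 in 14 of 15 classes, 7 of them calls, with a median ratio of 1.498. Neutrophil-like cells had the most, 2805 CPM (2555 to 3072) and 3793 CPM (3683 to 3905), giving a ratio of 1.35 (1.23 to 1.49). In macrophage-like cells the levels were 591 CPM (570.4 to 613) and 934 CPM (915 to 952), with a ratio of 1.58 (1.52 to 1.65), and cells with a UMI held 5.33 and 9.66 UMIs on average. The Ccl12-led cluster had 1.44 (1.36 to 1.52), the Gpnmb-led cluster 1.97 (1.83 to 2.12) and the dividing cluster 1.89 (1.64 to 2.19). The shallow Aif1-led cluster had 0.602 (0.299 to 1.31), on 11 and 35 UMIs. Only this shallow cluster lay below 1 among the 4. Monocyte-like cells, in which 5.03% of all genes were called higher and 4.92% lower, were at 421 CPM and 690.3 CPM, giving a ratio of 1.64 (1.34 to 2.03), and T-cell-like cells at 389 CPM and 545 CPM, with a ratio of 1.40 (1.22 to 1.62). Over the alternatives the lowest ratio was 1.45 in macrophage-like and 1.46 in monocyte-like cells, short of a call. In monocyte-like cells the 8 neutrophil markers summed to 149.9 CPM (4 of 8 seen) and 1184 CPM (8 of 8), with S100a9, Retnlg, Cxcr2 and Mmp9 at 0 in the control, and the 10 macrophage markers summed to 1561 CPM (6 of 10 seen) and 2539 CPM (10 of 10), with C1qa, C1qc, Mrc1 and Ms4a7 at 0 in the control; their part in this call was not tested. In T-cell-like cells with Cd4 the ratio was 1.06 (0.851 to 1.33); with Cd8a it was 1.49 (1.02 to 2.22) and with Trdc 2.01 (1.34 to 3.13), on 31 and 26 control UMIs. Tnf in the same 3 sets had ratios of 6.14, 3.92 and 10.1 (1.73 to 407), the last on 1 control UMI.

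Among the other classes, distal convoluted tubule-like cells had 196 CPM and 362 CPM, giving a ratio of 1.85 (1.73 to 1.98), a call kept under all alternatives, with 1.53 (1.43 to 1.65) in the Il1f6-led cluster. Principal or connecting tubule-like cells had 388 CPM and 585 CPM, with a ratio of 1.51 (1.44 to 1.59), with 1.29 (1.22 to 1.36) in the Spink8-led cluster. Pericyte or smooth-muscle-like cells had 179.6 CPM and 279 CPM, giving a ratio of 1.55 (1.26 to 1.93). The last 2 calls ended under several alternatives, with ratios down to 1.35 and 1.35. Thick ascending limb-like cells were at 79.2 CPM and 135 CPM, with a ratio of 1.70 (1.55 to 1.87), which became 0.983 with separate clustering of the libraries. The call in proximal tubule-like cells, 132 CPM and 198 CPM, giving a ratio of 1.501 (1.39 to 1.62), became 0.894 in cells of at least 1000 UMIs. Within that class the Slc13a3-led cluster was lower, at 149.9 and 99.1 CPM, with a ratio of 0.661 (0.512 to 0.842). Endothelial-like cells were the exception among the 15 classes, at 608 CPM and 573 CPM, giving a ratio of 0.942 (0.885 to 1.00).

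Tnfaip3 (ENSMUSG00000019850, chr10:19000910-19015657, minus strand) did not follow Nfkbia. It was highest in neutrophil-like and T-cell-like cells, at 588 CPM (477 to 717) and 407 CPM (372 to 445) in the former, a ratio of 0.693 (0.556 to 0.871), and 423 CPM (371 to 479) and 478 CPM (455 to 503) in the latter, a ratio of 1.13 (0.988 to 1.30). In macrophage-like cells it was at 209 CPM and 201 CPM, giving a ratio of 0.960 (0.891 to 1.03), while the ratios of Nfkbia and Tnf there were 1.58 and 1.65. T-cell-like cells with Cd4 and without Cd8a had a Tnfaip3 ratio of 1.44 (1.09 to 1.95). No class had a higher call. Lower calls were made in injured tubule-like cells, at 57.1 CPM and 37.6 CPM, with a ratio of 0.658 (0.552 to 0.782), in intercalated-cell-like cells, at 83.5 CPM and 47.2 CPM, giving a ratio of 0.565 (0.403 to 0.781), and in podocyte-like cells, at 31.5 CPM and 18.8 CPM, with a ratio of 0.598 (0.376 to 0.975). The share of all genes called higher and lower was 3.36% and 7.03% in injured tubule-like cells and 3.58% and 4.79% in podocyte-like cells. Over the alternatives the injured tubule-like ratio ran up to 0.806, short of a call. With each cell named on its own the intercalated-cell-like ratio was 0.912, and with separate clustering of the libraries the podocyte-like ratio was 1.04. A difference between the ratios of Nfkbia and Tnfaip3 within a class was not tested.

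**Figure D5:**
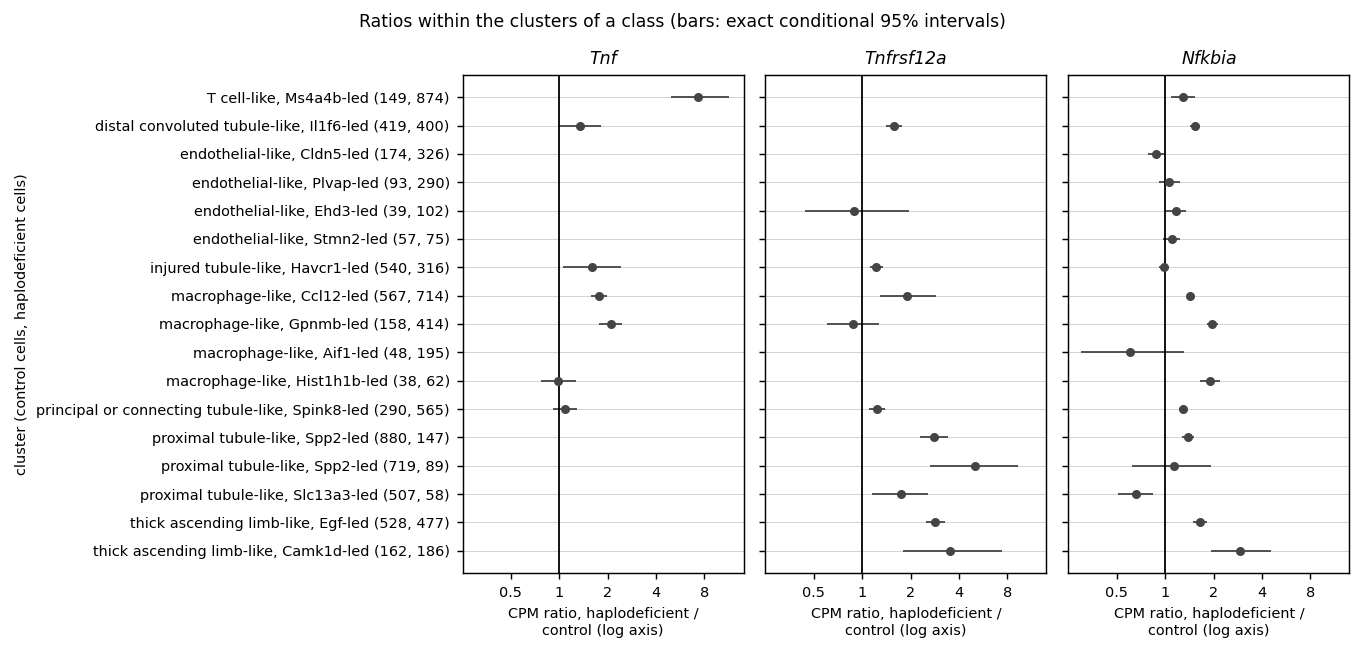
Ratio of Tnf, Tnfrsf12a and Nfkbia, haplodeficient over control, on a log axis within single clusters of at least 30 cells per library, where UMIs sufficed; labels give the control and haplodeficient cell numbers, and bars are exact conditional 95% intervals. Tnf in the Ms4a4b-led T-cell-like cluster (7.33) lies above its macrophage-like clusters, of which the dividing one is at 0.986.

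In endothelial-like cells, where Cre is driven, 0 of the 7 members that passed the minimums were called in either direction; over all genes 4.25% were called higher and 5.74% lower there. Tnfrsf1a, Nfkbia and Relb had ratios of 1.20, 0.942 and 0.959. Nfkb1 was at 157 CPM (141 to 173) and 128 CPM (119 to 138), giving a ratio of 0.819 (0.721 to 0.932). Within the class, the cluster led by Cldn5 and Sox17 had 153 and 92.8 CPM of Nfkb1, a ratio of 0.606 (0.484 to 0.758). In cells of the descending vasa recta subtype it was at 178 and 95.3 CPM, with a ratio of 0.535 (0.405 to 0.708), and Nfkbia at 589 and 421 CPM, giving a ratio of 0.715 (0.622 to 0.824). Tnfaip3 was at 40.1 CPM and 34.4 CPM, with a ratio of 0.859 (0.667 to 1.11). Tnf and Ltb did not pass the minimums. Tnf had 15 and 36 UMIs, 6.26 CPM and 6.81 CPM, and free RNA could account for 60.1% of the haplodeficient ones.

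The vessels differed among themselves in the receptor and the inhibitor. Nfkbia was highest in the cluster led by Stmn2, Fbln5 and Eln, genes of arterial endothelium, at 960.2 and 1053 CPM, giving a ratio of 1.10 (0.971 to 1.24), and near 497 to 519.6 CPM in the other control clusters. Tnfrsf1a was at 158 and 239 CPM, with a ratio of 1.52 (1.17 to 2.00), in the capillary cluster led by Plvap, with 93 and 290 cells. In the cluster led by Ehd3 and Kdr, genes of glomerular endothelium, it was at 219 and 170.2 CPM, giving a ratio of 0.775 (0.612 to 0.989). The 2 ratios lie on either side of 1, and their difference was not tested. Tnfrsf12a stayed low, at 13.4 CPM and 17.6 CPM over the whole class, a ratio of 1.32 (0.873 to 2.03).

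Other genes of the pathway were read as lists. In T-cell-like cells, where 3.64% of all genes were called higher and 9.26% lower, 5 of the 11 textbook NF-kappaB target genes with enough UMIs were called higher and 0 lower. Their median log2 ratio was 0.54, against -0.09 for all genes. Cxcl10, a chemokine for T cells, was at 31.4 and 75.1 CPM, giving a ratio of 2.39 (1.48 to 4.10). The anti-apoptotic gene Bcl2a1b was at 327 and 591 CPM, with a ratio of 1.81 (1.56 to 2.12), and the chemokine gene Ccl5 had the highest level, 2726 and 4659 CPM, giving a ratio of 1.71 (1.62 to 1.80). Cxcl2, a neutrophil chemokine, was at 17.5 and 74.2 CPM, of which free RNA could account for 36.6% and 25.5%. Of 6 other TNF superfamily ligands 2 were called higher: Cd40lg, the helper-cell ligand of CD40, at 129 and 317 CPM, with a ratio of 2.45 (1.94 to 3.15), and Tnfsf10, which encodes TRAIL, at 29.7 and 54.2 CPM, giving a ratio of 1.82 (1.11 to 3.20). Nfkbid, an IkappaB protein of the nucleus, was at 96.1 and 241 CPM, with a ratio of 2.51 (1.91 to 3.37), the single call among 8 subunit and IkappaB genes. Among 8 other feedback genes none was called. Dissociation and immediate early genes were higher as well in these cells: 5 of 12 were called, among them Fos (2.77), Nr4a1 (2.73) and Junb (1.93), and their part in the level of Tnf was not tested.

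In macrophage-like cells (2.56% of all genes higher, 5.85% lower) 5 of 17 target genes were called higher and 0 lower, and the median log2 ratio was 0.15, against -0.04. Csf1, the macrophage growth factor, was at 10.0 and 68.5 CPM, giving a ratio of 6.83 (5.14 to 9.27), Ccl5 had a ratio of 2.15 and Cxcl10 one of 1.90. Cxcl2 had the highest level of the list, 2062 and 3083 CPM, with a ratio of 1.49 (1.46 to 1.53). Of 10 other feedback genes 1 was called, Tnip3, which encodes a partner of A20, lower at 192 and 96.9 CPM, giving a ratio of 0.506 (0.462 to 0.553). The immediate early genes had a summed ratio of 1.01, with 0 of 14 called higher and 2 lower. Their part in the levels of Tnf and Nfkbia in these cells was not tested. In neutrophil-like cells (5.47% higher, 7.93% lower) 3 of 14 targets were called higher, and their lower calls are not counted here. Cxcl10 had a ratio of 10.3 (2.80 to 85.7). Cxcl2 was at 13588 and 23459.9 CPM, with a ratio of 1.73 (1.65 to 1.80). None of 9 feedback genes was called there, and the summed ratio of immediate early genes was 0.974.

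Targets were called higher in tubule classes too, and in some of them also lower. In principal or connecting tubule-like cells (7.29% of all genes higher, 7.03% lower) 8 of 13 targets were called higher and 0 lower, with a median log2 ratio of 0.70 against 0.03. Ccl20, a chemokine for CCR6-bearing lymphocytes, was at 18.3 and 115 CPM, giving a ratio of 6.31 (5.20 to 7.71), Cxcl10 at 16.8 and 80.6 CPM, with a ratio of 4.81 (3.91 to 5.96), and Ccl5 at 2.46 and 118 CPM, of which free RNA could account for all in the control and 15.5% in the haplodeficient cells. Within the Spink8-led cluster the ratios were 3.80 (3.13 to 4.64) for Ccl20, 3.38 (2.71 to 4.26) for Cxcl10 and 30.7 (18.5 to 55.1) for Ccl5. The targets were called higher and lower in 7 and 1 of 15 in descending thin limb-like cells, where 2.79% and 6.63% of all genes were. In intercalated-cell-like cells they were called in 6 and 1 of 11, with a background of 8.99% and 7.07%. In proximal tubule-like cells 4 of 11 were called higher and 0 lower, with a background of 15.1% and 3.12%. In thick ascending limb-like cells 3 of 8 were called higher and 1 lower, with a background of 15.5% and 4.53%. In distal convoluted tubule-like cells 3 of 13 were called higher and 1 lower, beside 7.12% and 4.3% of all genes. Injured tubule-like cells had 4 of 14 called higher and 3 lower, beside 3.36% and 7.03%. Among 9 feedback genes with enough UMIs in principal or connecting tubule-like cells only Zfp36, whose product destroys Tnf transcripts and other unstable messengers, was called, lower at 645 and 389.7 CPM, giving a ratio of 0.604 (0.576 to 0.633), and 0.733 (0.692 to 0.777) within the Spink8-led cluster. Zfp36 was also lower in endothelial-like cells, at 907 and 562 CPM, with a ratio of 0.620 (0.587 to 0.656). Over all 15 classes it was called lower in 5 and higher in 0, where 5.96% of all gene-class pairs were called lower. In endothelial-like cells the median log2 ratio of 16 targets was -0.01, against 0.00 for all genes. Of these targets, whose lower calls are not counted here, 5 were called higher, beside 4.25% of all genes in this class. Of those, free RNA could account for the whole level of Ccl5 and Lcn2 in both libraries and for 19.7% and 75.0% of that of Cxcl2 in the control and the haplodeficient library. Cxcl10 was at 106 and 171 CPM, giving a ratio of 1.61 (1.40 to 1.86), with 2.69% and 3.40% from free RNA.

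Among genes upstream of NF-kappaB calls went both ways. Map3k14, which encodes NIK, the kinase of the slower branch, passed the minimums in 14 classes and was called lower in 6 and higher in 0, where 5.96% of all gene-class pairs were called lower. Examples were principal or connecting tubule-like cells at 94.6 and 40.2 CPM, giving a ratio of 0.425 (0.368 to 0.489), where the Spink8-led cluster had 0.549 (0.462 to 0.651), thick ascending limb-like cells at 77.2 and 33.9 CPM, with a ratio of 0.440 (0.385 to 0.502), and macrophage-like cells at 54.5 and 32.4 CPM, giving a ratio of 0.594 (0.505 to 0.700). Fas, a death receptor of the same family, was called lower in 5 of 13 classes and higher in 0, for instance in neutrophil-like cells at 212 and 124 CPM, with a ratio of 0.583 (0.401 to 0.869). Rbck1, which encodes a subunit of the linear ubiquitin ligase, was called higher in 4 of 15 classes and lower in 0. Tradd, the adaptor of TNFR1, was called higher in 3 of 12 and lower in 0. Over all genes 6.4% of gene-class pairs were called higher. Among endothelial-like cells Rbck1 was at 31.3 and 53.7 CPM, giving a ratio of 1.72 (1.33 to 2.24), and Tradd at 11.3 and 19.7 CPM, with a ratio of 1.75 (1.13 to 2.77). These 4 genes were singled out after their values were seen. Relb, read beside Map3k14 as a gene of the same branch, was called lower in 0 classes.

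Patterns over the 15 classes and 2 libraries (30 points of log2 CPM after adding 5) were compared by Pearson's r with those of 10154 genes, as a description, since points of 1 library share its depth and cell makeup. Closest to Tnf were Adam8 (r = 0.93), Zc3h12a (r = 0.91) and Skil (r = 0.90). Those closest to Ltb were Rhof (r = 0.89), E030030I06Rik (r = 0.88) and Stk4 (r = 0.88). Tnfrsf1a was most like Ifitm2 (r = 0.94), Rab31 (r = 0.87) and Ubtd1 (r = 0.86), and Tnfrsf1b most like Apbb1ip (r = 0.98), Pik3cd (r = 0.97) and Samsn1 (r = 0.97). For Tnfrsf12a the genes were Apex1 (r = 0.93), Ttc33 (r = 0.91) and Shisa4 (r = 0.90), and for Nfkb1 Cmtm7 (r = 0.86), Morc3 (r = 0.86) and Actb (r = 0.86). Nfkbia had Ssu72 (r = 0.90), Bcl10 (r = 0.87) and Sde2 (r = 0.86), Tnfaip3 had Gna13 (r = 0.94), Smap2 (r = 0.92) and Baz1a (r = 0.92), and Relb had Nfkb2 (r = 0.89), Tapbp (r = 0.87) and Tspan13 (r = 0.87). The likeness was highest for Tnfrsf1b and lowest for Nfkb1.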

How the data were processed

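Droplet single-cell RNA was measured in 2 libraries, 1 per group. The deposited values were raw counts of UMIs per gene and barcode, unfiltered, which the authors produced in Cell Ranger (version 4 per the file headers) and aligned to mm10, per the submitters' processing notes; strand use and annotation were not given in the sources used here. The 9 genes, the pathway lists and all rules were chosen with earlier results of these data known.

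Barcodes under 500 UMIs or 200 genes, or above 50% mitochondrial UMIs, were dropped, which left 9452 and 10026 barcodes. Scrublet (scanpy 1.11.5) scores removed 715 and 804 likely doublets, 0.8% per 1000 cells. Clustering took both libraries jointly, with no batch correction, over 2000 variable genes, leaving out the 9 genes and the pathway lists, with 30 principal components, 15 neighbours and Leiden resolution 1 (leidenalg 0.10.2, scikit-learn 1.9.0). A class needed at least 3 of its markers, detected in 10% of cells at 2-fold or more, and no more markers of another class among its 10 leading genes. The scoring, and counting vessel subtype markers as endothelial, were set after the data were seen. Unnamed clusters held 9.80% and 11.9% of cells, and differences from the study may come from rebuilt names.

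UMIs were summed per class and library and expressed as CPM. Intervals used scipy 1.17.1 and cover counting error only. Free RNA was read from barcodes of 1 to 100 UMIs. Shares of cells were taken after thinning to 1000 UMIs, leaving out shallower cells, with exact Clopper-Pearson intervals, and a count of 0 allows up to 3 counts. The size rule was tested on simulated data, whose settings and outcome are not given here, so the calls draw no support from it. All 9 genes are named in every class described; from a list, the up to 3 genes with the largest log2 ratio and the one with the highest level were named. Alternatives are given in the closing section.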

Additional observations from a re-analysis of the deposited data

Results flagged for a closer look

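The ratio of Nfkb1 lay on opposite sides of 1 in different classes. It was 2.22 in proximal tubule-like cells, and 0.667 in descending thin limb-like and 0.602 in pericyte or smooth-muscle-like cells. Each library gives 1 value per class, so the difference between classes was not tested. In the pericyte or smooth-muscle-like class the direction also depended on how cells were clustered.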

How the results depend on the processing

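The count of 21 higher calls became 4 at 2-fold and 32 without minimums. The 5 lower calls became 0 at 2-fold, 2 at resolution 2, with a mitochondrial limit of 25% or without doublet removal, and 3 with at least 1000 UMIs per cell, each cell named alone, a mean of 50 CPM, median-of-ratios scaling or the genes kept in the clustering.

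Ratios at a fixed class makeup moved as follows. In the 5000 deepest barcodes Ltb was 1.89, Nfkb1 0.856, Tnfaip3 0.869 and Tnfrsf12a 1.55. With every class weighted equally Nfkb1 was 0.763, Relb 1.05, Tnfrsf12a 1.31 and Tnfrsf1a 1.03. Totals without mitochondrial UMIs, chosen after seeing the data, gave Nfkb1 0.865, Nfkbia 1.27, Tnfrsf12a 1.54 and Tnfrsf1a 1.05. Nfkbia was 1.39 at resolution 2 and with each cell named alone, 1.36 with the genes kept, 1.30 with the 25% limit and without doublet removal, and 1.28 from 1000 UMIs. Nfkb1 was 0.854 from 1000 UMIs and 0.862 with the 25% limit, and Tnfrsf12a 1.82 with each library clustered alone.

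Of 1231 ratios of a gene in a class under alternatives, 1085 stayed within counting error, 139 moved and 7, all of called pairs, turned direction. A turn was counted only for pairs called in the main setting. An uncalled pair whose ratio crossed 1 was counted as within counting error or as moved. Nfkb1 in pericyte or smooth-muscle-like cells turned to 1.01 without doublet removal, 1.05 with each cell named alone and 1.95 with each library clustered alone. Nfkbia turned to 0.894 in proximal tubule-like cells from 1000 UMIs, 0.910 in the 5000 deepest barcodes, and 0.983 in thick ascending limb-like cells with each library clustered alone. Tnfaip3 in podocyte-like cells turned to 1.04 in the last setting. The cause was not tested. Thinning to 500 UMIs moved 61 of 72 shares of cells. The 5000 deepest barcodes gave no ratio in neutrophil-like cells, and Tnfaip3 in podocyte-like cells had none at resolution 2 or without doublet removal. Depth limits Tnf outside leukocytes and the T-cell-like control, which rests on 29 UMIs. No paired analysis was possible because each group had 1 library.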

Other observations

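3 clusters that met no class carried the same genes and are given as values. The Retnla-led cluster (118 control and 202 haplodeficient cells) had Ccl17, Mgl2 and Cd209a, genes of monocyte-derived antigen-presenting cells, among its leading genes. Tnf was at 65.5 and 91.1 CPM there, giving a ratio of 1.39 (1.03 to 1.89), Nfkbia at 737 and 906 CPM, giving a ratio of 1.23 (1.12 to 1.34), and Nfkb1 at 802 and 762 CPM, giving a ratio of 0.950 (0.869 to 1.04). The Slc26a4-led cluster, of deep cells, was left unnamed because it met 8 intercalated-cell markers and also 9 principal or connecting tubule markers. Whether its barcodes hold more than 1 cell was not tested, so it is no independent view of intercalated cells. It had Tnf at 21.8 and 39.6 CPM, giving a ratio of 1.82 (1.51 to 2.18), and Tnfrsf12a at 86.3 and 149 CPM, giving a ratio of 1.73 (1.58 to 1.89). The Psca-led cluster had Tnf at 19.7 and 14.9 CPM, giving a ratio of 0.757 (0.603 to 0.950), and Tnfrsf12a at 87.9 and 135 CPM, giving a ratio of 1.54 (1.41 to 1.69). Tnfrsf12a was thus higher in both epithelial clusters, and Tnf in 1 of them.

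NK-cell-like cells were too few in the control library (19 against 131) to be compared with the other classes. Their Ltb was at 292 and 650.3 CPM and their Tnf at 30.7 and 55.5 CPM, on 2 and 21 UMIs. The 10 T cell markers summed to 492 CPM (5 seen) and 4272 CPM (9 seen) in these cells, and their part in the Ltb level was not tested. In the barcodes of free RNA, Tnf was at 9.59 CPM in the control and 63.3 CPM in the haplodeficient library.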
